A study of Arabidopsis thaliana with 2 samples.

Results

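The genes described are the beta-glucosidase (BGLU) genes of Arabidopsis thaliana whose transcripts gave a signal at or above the median in young rosette leaves. A member is a gene whose symbol starts with BGLU, that has a probe set assigned to it alone, and whose signal, averaged over the pair of arrays, was no lower than the median average of all Arabidopsis probe sets, 39.9 units. This rule left 7 members (BGLU15, BGLU16, BGLU25, BGLU33, BGLU40, BGLU42 and BGLU44) among 20 BGLU genes with a probe set of their own. The other 13 lay below the level, and 1 further probe set was assigned to both BGLU21 and BGLU22 and was not used. The gene table holds 47 genes called BGLU by symbol or synonym, of which 22 had a probe set named here, counting PYK10 and ATA27, which are listed under those names. The members were thus chosen by their mean signal on these same arrays, which is given only as a description, and the family was picked with earlier results of these data known.

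The study compared the gain-of-function line BOUNTIFUL, which the labels describe as carrying an I/dSpm activation tag (DNA whose enhancer can raise nearby genes) in a locus called BOU, on a Ws-0 background, with wild-type Ws-0. For each genotype, total RNA of the 4 youngest rosette leaves, mixed, at growth stage 6.50 was read on 1 Affymetrix ATH1 array. Plants of both grew on compost in a glasshouse at 23 °C under 16 h of light per day. BOUNTIFUL stands for 1 line, how many plants gave leaves is not stated in the labels, and no array was repeated, so every difference below is between a pair of RNA samples, has no replicate check and carries no p-value. In leaf RNA, fewer cells of a type and less RNA per cell cannot be told apart.

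BGLU enzymes belong to a large plant family of glycoside hydrolases that remove glucose from small molecules. Plants store many hormones, phenolics and defence compounds as inactive glucosides, built by UGT glycosyltransferases, and a beta-glucosidase sets the active part free when it meets its substrate. In Arabidopsis, individual members are known to act on flavonol glycosides, on the glucose ester of abscisic acid, on coumarin glucosides, on lignin precursors and on glucosinolates.

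Of the 7 members, 2 were at least 2-fold higher in BOUNTIFUL, both past 3-fold, 1 was at least 2-fold lower, and 4 lay within 2-fold. Folds and log2 ratios are BOUNTIFUL over Ws-0 of signal plus a pseudocount of 7.77 units, a scale that understates the difference of low signals. BGLU15 and BGLU16 were the higher genes and BGLU33 the lower one. Of all 11373 probe sets at or above the same level, a 2-fold or larger difference was counted for 4.63% towards BOUNTIFUL and 3.98% towards Ws-0, together 8.62%, and for 3 of the 7 members. With 7 genes from 1 array a genotype, and a family picked with results known, this count describes the arrays and is no test of the family. BGLU15 reached the level only through its BOUNTIFUL signal of 112 units, since its Ws-0 signal of 23.1 units lay below it. Its entry into the count is thus not independent of its being higher in BOUNTIFUL. BGLU16 and BGLU33 lay above the level on both arrays. The passing probe sets were kept by the same rule on mean signal. The members' median log2 ratio was 0.60 and that of all passing probe sets was -0.06, with 5 members above 0 and 2 below, where 44.9% of passing probe sets lay above 0.

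**Figure D1:**
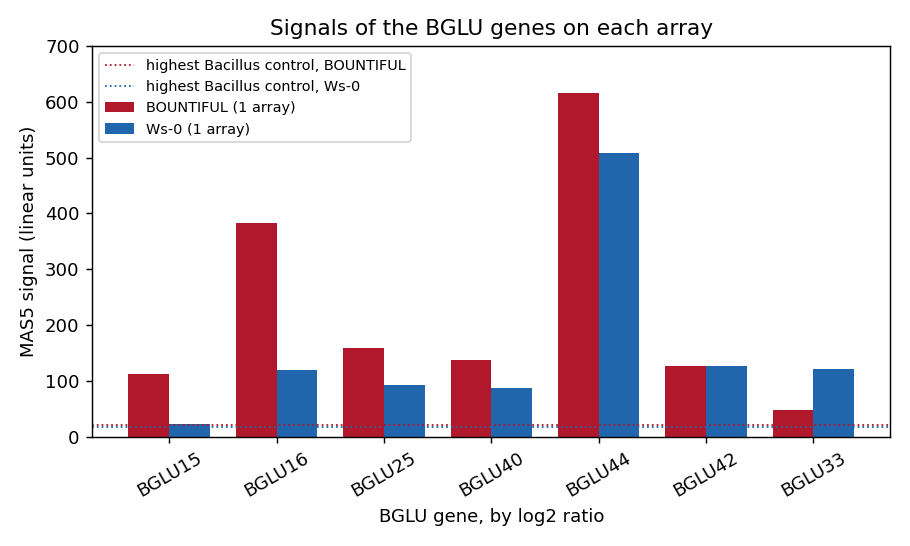
MAS5 signal (linear units) of the 7 BGLU genes, ordered by log2 ratio, with 1 bar for the BOUNTIFUL array (left of each pair) and 1 for the Ws-0 array; there are no error bars because each genotype had 1 array. Dotted lines mark the highest Bacillus subtilis control on each array (21.9 units in BOUNTIFUL, 16.7 in Ws-0), and pairs are to be read within a gene, since probe sets of different genes have no common scale of abundance.

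BGLU15 (AT2G44450) is the Arabidopsis enzyme known to remove glucose from flavonol glycosides that carry both glucose and rhamnose. Its probe set read 112 units in BOUNTIFUL and 23.1 units in Ws-0. This was a log2 ratio of 1.96, a 3.89-fold difference, and 0.941% of passing probe sets had a higher log2 ratio. The Ws-0 signal lay just above the range of control probe sets for Bacillus subtilis genes, which reached 21.9 units in BOUNTIFUL and 16.7 units in Ws-0 and mark what these arrays read with no plant transcript present. The size of the ratio therefore moved with the pseudocount, being 2.28 with none and 1.52 with one of 24.8 units, and it stayed past 2-fold under both.

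BGLU15 is followed in gene order by BGLU28 (AT2G44460), the BGLU gene nearest below the level, and the pair mark both edges of the rule. BGLU15 had a mean signal of 67.8 units and BGLU28 a mean of 34.7 units. BGLU28, known in Arabidopsis for its induction under sulfur deficiency, read 59.8 units in BOUNTIFUL and 9.70 units in Ws-0. Its log2 ratio was 1.95, close to that of BGLU15, but its Ws-0 signal was within the range of the controls, so this ratio rests on the pseudocount. BGLU29 (AT2G44470), the next BGLU gene of the same row, read 15.8 units in BOUNTIFUL and 11.9 units in Ws-0, both within the control range. BGLU17 and PEN2, which complete the row, had no probe set named here. Whether the probes of BGLU15 and BGLU28 also bind each other's transcripts was not tested, and both probe sets carry the plain suffix that marks no known cross-hybridisation.

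BGLU16 (AT3G60130) read 383 units in BOUNTIFUL and 120 units in Ws-0. The log2 ratio was 1.61, a 3.06-fold difference, and 1.58% of passing probe sets had a higher one. Both signals were far above the controls, and the log2 ratio was 1.68 with no pseudocount and stayed past 2-fold with the larger one. Its neighbour BGLU27 (AT3G60120) stayed in the control range on both arrays, at 5.25 units in BOUNTIFUL and 10.6 units in Ws-0, so no difference can be read from it. DIN2, the BGLU gene on the other side, had no probe set named here. With the passing probe sets split into 4 equal classes by mean signal, 6.58% of the class with the highest means, which holds BGLU16, were at least 2-fold higher. In the second class from below, which holds BGLU15, BGLU33 and BGLU40, 3.59% reached 2-fold towards BOUNTIFUL and 3.45% towards Ws-0.

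BGLU33 (AT2G32860) was the member that went the other way. It is known in Arabidopsis as a vacuolar enzyme that frees abscisic acid, the drought hormone, from its glucose ester. Its probe set read 47.9 units in BOUNTIFUL and 122 units in Ws-0, a log2 ratio of -1.23, which is 2.34-fold higher in Ws-0. Among passing probe sets, 2.33% had a lower log2 ratio. Both signals lay above the controls. The gene next to it with a named probe set, AT2G32850, read 86.4 units in BOUNTIFUL and 87.3 units in Ws-0.

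The remaining 4 members lay within 2-fold. BGLU25 (AT3G03640) read 159 units in BOUNTIFUL and 92.9 units in Ws-0, a log2 ratio of 0.73. BGLU40 (AT1G26560) read 137 units in BOUNTIFUL and 87.9 units in Ws-0, a log2 ratio of 0.60. Both stood above most genes, since 8.41% and 11.1% of passing probe sets had a higher log2 ratio than BGLU25 and BGLU40, without reaching 2-fold. BGLU44 (AT3G18080), known to act on beta-mannosides, read 616 units in BOUNTIFUL and 508 units in Ws-0, a log2 ratio of 0.27. BGLU42 (AT5G36890), which in Arabidopsis roots frees iron-mobilising coumarins from their glucosides, read 126 units in BOUNTIFUL and 128 units in Ws-0, a log2 ratio of -0.01. For scale, 33 genes were read by 2 passing probe sets each, whose log2 ratios lay apart by a median of 0.21 and a 90th percentile of 0.54, which is the spread between probe sets on the same arrays and not between plants. BGLU15, BGLU16, BGLU25, BGLU33 and BGLU40 lay farther from 0 than that 90th percentile, and BGLU42 and BGLU44 did not, in the values as deposited. With the larger pseudocount BGLU40 fell short of it, at 0.52.

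**Figure D2:**
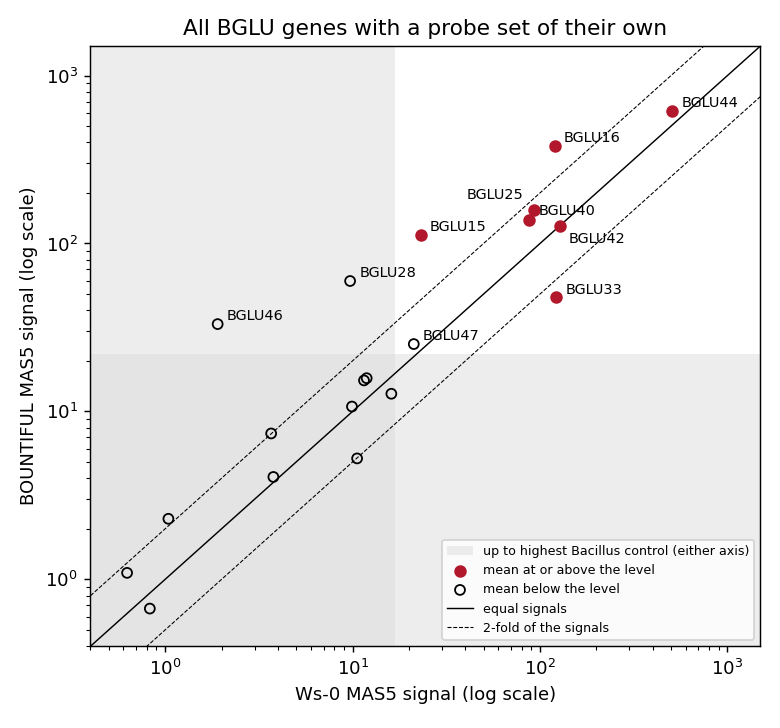
BOUNTIFUL signal against Ws-0 signal (MAS5 units, both axes on a log scale) for the 20 BGLU genes with a probe set of their own, 1 point a gene. Filled points are the 7 genes at or above the level and open points the 13 below it. Grey bands reach to the highest Bacillus control of each array, and dashed lines mark a 2-fold ratio of the signals. BGLU15 and BGLU16 lie above the upper dashed line, and BGLU33 below the lower one, all clear of both bands. BGLU28 and BGLU46 lie above the upper dashed line and clear of the BOUNTIFUL band, but inside the Ws-0 band.

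Of the 13 BGLU genes below the level, with mean signals of 0.75 to 34.7 units, 10 read within the range of the controls on both arrays. The other 3 were BGLU28, BGLU46 and BGLU47. At least a 2-fold higher signal in BOUNTIFUL was counted for 2 of the 13 and a 2-fold lower one for 0, while 6.74% of all probe sets below the level passed 2-fold in either direction. These were BGLU28 and BGLU46 (AT1G61820), named here after its values were seen. BGLU46 is an Arabidopsis stem enzyme that acts on the glucosides of lignin precursors, and it read 33.1 units in BOUNTIFUL and 1.91 units in Ws-0. The Ws-0 value was within the control range.

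The balance of the members depended on how the arrays were scaled. The deposited values had been brought to an equal trimmed mean, but transcripts added to the hybridisation mix read lower in BOUNTIFUL, by a mean log2 ratio of -0.35 over 9 newer probe sets and -0.55 over 9 older ones. Setting these spikes equal moved the median log2 ratio of all passing probe sets to 0.27 (newer) and 0.45 (older). BGLU15 then reached 2.29 and 2.48, and BGLU16 reached 1.96 and 2.15. BGLU33 came to -0.92 and -0.74, short of 2-fold, BGLU25 to 1.07 and 1.25, past 2-fold, and BGLU40 to 0.94 and 1.12. BGLU44 came to 0.62 and 0.81, within 2-fold but past the 90th percentile of probe set pairs. BGLU42 turned positive, at 0.32 and 0.51, and it was also above 0 with median centring, quantile normalisation and loess, at 0.05 to 0.07. With the newer spikes 3 members were at least 2-fold higher and 0 lower, and with the older spikes 4 and 0. The background rose as well. Counted alike over the whole set of 11373, there were 527 higher and 453 lower as deposited. The newer spikes gave 1118 higher and 203 lower, and the older ones 1663 and 131. Relative to the median of all passing probe sets the members hardly moved. BGLU15 stood 2.02 above that median as deposited and with either spike scaling, and BGLU33 stood at -1.17 as deposited and at -1.19 and -1.20 with the newer and older spikes.

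**Figure D3:**
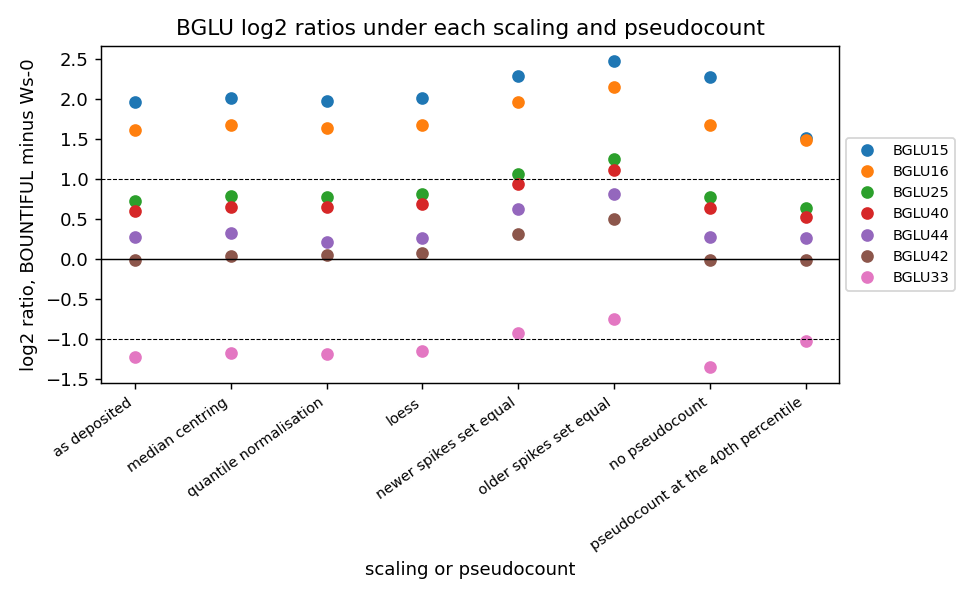
Log2 ratio (BOUNTIFUL minus Ws-0) of the 7 BGLU genes, 1 point a gene, with the arrays as deposited and under each other scaling or pseudocount. Dashed lines mark 2-fold. BGLU15 and BGLU16 stay above the upper line in every column shown, and BGLU33 crosses the lower line where the spikes are set equal.

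The pathways that supply or use the substrates of these enzymes were read through gene lists that the array annotation names only in part. For flavonol glycosides, the substrates of BGLU15, 5 of 17 listed genes had a named probe set and 4 passed. All 4 had log2 ratios above 0, 2 were at least 2-fold higher in BOUNTIFUL, and the median was 1.33, beside -0.06 and 4.63% higher for all passing probe sets. The list entry AT1G06000 read 653 units in BOUNTIFUL and 69.1 units in Ws-0, a log2 ratio of 3.10. CHIL, a chalcone isomerase-like protein that aids flavonoid synthesis, read 241 units in BOUNTIFUL and 56.4 units in Ws-0, a log2 ratio of 1.95. UGT78D2, which puts glucose on flavonoids, had a log2 ratio of 0.70, with 269 units in BOUNTIFUL and 162 units in Ws-0. UGT78D1, which puts rhamnose on flavonols, had 0.28, with 105 units in BOUNTIFUL and 85.02 units in Ws-0. The fifth gene, UGT78D3, read within the control range on both arrays, at 3.19 units in BOUNTIFUL and 0.78 units in Ws-0, and with no filter, which lets it in, the list's median was 0.70. A stricter filter (75th percentile) gave a median of 1.95. BGLU15 and 2 of the 4 passing genes were thus at least 2-fold higher in BOUNTIFUL, while the remaining 12 entries, among them the chalcone synthase gene, had no probe set named here.

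For abscisic acid, the hormone whose glucose ester BGLU33 cleaves, 2 of 18 genes of synthesis, conjugation and breakdown had a named probe set. UGT71C5, which makes the glucose ester, read 92.8 units in BOUNTIFUL and 55.1 units in Ws-0, a log2 ratio of 0.68. UGT71B6, which glucosylates the hormone too, lay in the control range, at 0.75 units in BOUNTIFUL and 2.62 units in Ws-0. The probe sets for the conjugating UGT71C5 and the cleaving BGLU33 therefore had log2 ratios of opposite sign, of which that of BGLU33 alone reached 2-fold as deposited. With either spike scaling the signs stayed opposite, but UGT71C5, at 1.01 and 1.19 with the newer and older spikes, was the one past 2-fold. Of 23 genes of abscisic acid signalling and response, 4 passed, 3 of them above 0 and 1 at least 2-fold higher, with a median of 0.35. The dehydrin gene LTI30 read 199 units in BOUNTIFUL and 39.0 units in Ws-0, a log2 ratio of 2.14. COR15B and COR15A, which encode chloroplast proteins of cold tolerance, had log2 ratios of 0.62 and 0.08. The dehydrin gene COR47 had -0.58, with 948 units in BOUNTIFUL and 1425 units in Ws-0.

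Genes with a UGT symbol, for glycosyltransferases that attach the sugars that glucosidases remove, gave no 2-fold difference as deposited at or above the level. Genes that the gene table gives by locus alone, such as AT1G06000 of the flavonol list, are not in this set. Of 58 genes with a UGT symbol in the gene table, 47 had a named probe set and 17 passed, with 8 above 0, 9 below 0 and none at 2-fold. Their median log2 ratio was -0.01, beside 0.60 for the 7 BGLU genes and -0.06 for all passing probe sets. Setting the newer spikes equal put 3 of the 17 past 2-fold, all higher in BOUNTIFUL, with a median of 0.32. That scaling also brought the count of higher ones in the whole set of 11373 to 1118, with a median of 0.27. Of the 30 UGT genes below the level, 0 were at least 2-fold higher in BOUNTIFUL and 3 at least 2-fold lower. Beside this, 6.74% of all probe sets below the level passed 2-fold in either direction. With counts this small, no direction is read from them. These 3 genes are named after their values were seen. UGT85A4 read 1.06 units in BOUNTIFUL and 34.0 units in Ws-0, UGT85A7 read 3.71 units in BOUNTIFUL and 44.0 units in Ws-0, and UGT73B5 read 1.20 units in BOUNTIFUL and 17.2 units in Ws-0. In each the BOUNTIFUL signal was within the control range and the Ws-0 signal above it. Among the 17 UGT genes that passed, the highest were UGT76C2, a cytokinin glucosyltransferase, at 0.91, UGT78D2 at 0.70 and UGT71C5 at 0.68. The lowest of these 17 were UGT72E1, which acts on a lignin precursor, at -0.96, UGT84A3 at -0.85 and UGT74D1, which acts on auxins, at -0.72.

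The other lists were thinly measured. Of the coumarin list, which holds BGLU42 itself, 2 of 7 entries passed, BGLU42 and AT1G28680, at -0.01 and 0.05. Of 21 other cell wall glycosidases, 3 had a named probe set and 2 passed. These were AT5G10560 at 0.04 and AT1G78060 at 0.81, the second with 259 units in BOUNTIFUL and 145 units in Ws-0. The sulfur deficiency list, which bears on BGLU28, was represented by AT1G04770 at -0.18, which became 0.17 with the newer spikes. Of 12 entries of the myrosinase and ER body list, 3 had a named probe set (PYK10, NAI1 and NAI2), and 0 passed. The other entries were not read here. PYK10 (AT3G09260), an ER body glucosidase of the same enzyme family, best known from roots, missed the level with 56.5 units in BOUNTIFUL and 13.6 units in Ws-0, a log2 ratio of 1.59 that rests on the pseudocount, since the Ws-0 signal was within the control range. NAI2, a protein needed to form ER bodies, read 19.7 units in BOUNTIFUL and 8.42 units in Ws-0, within the control range on both arrays.

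**Figure D4:**
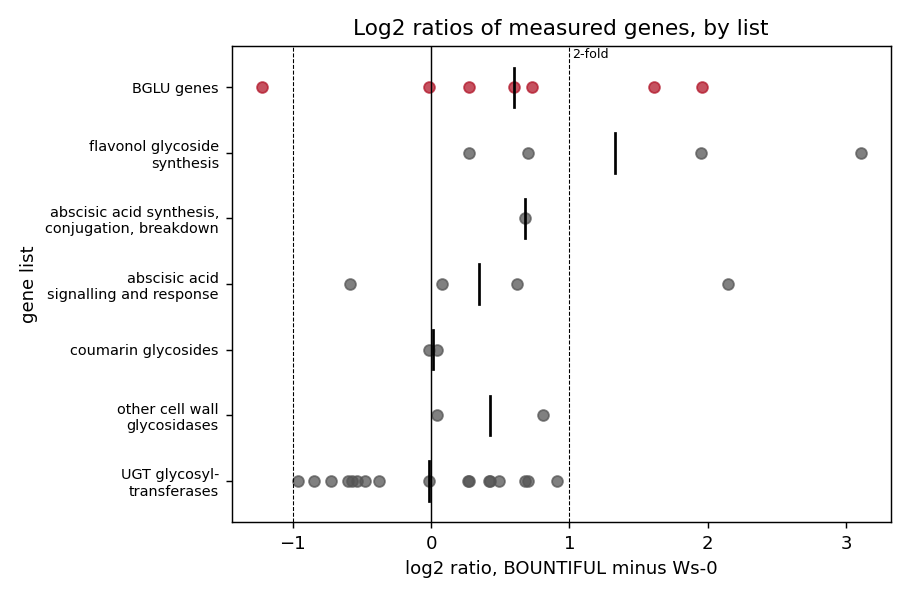
Log2 ratio (BOUNTIFUL minus Ws-0) of each measured gene, 1 point a gene, for the 7 BGLU genes and for 6 gene lists, with a vertical bar at each list's median. Dashed lines mark 2-fold. All 4 flavonol glycoside genes lie above 0, and the 17 UGT genes spread on both sides of it.

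Leaf markers were bright on both arrays and markers of flowers were not. The 4 leaf markers with a named probe set (LHCB4.1, LHCB4.2, PSAN and RCA) read from 261 to 3729 units in BOUNTIFUL and from 158 to 4492 units in Ws-0, while 3 markers of flower and pollen read at most 2.63 units in BOUNTIFUL and 6.73 units in Ws-0. The root markers with a probe set, EXPA7, EXPA18 and PYK10, summed to 100.2 units in BOUNTIFUL and 60.3 units in Ws-0, and PYK10 made up the difference. The root hair genes EXPA7 and EXPA18 read 17.5 and 26.1 units in BOUNTIFUL and 21.7 and 24.99 units in Ws-0. EXPA18 thus lay above the highest Bacillus control on both arrays, and EXPA7 did so in Ws-0 alone. The Ws-0 signal of BGLU15, 23.1 units, was below that of EXPA18. Whether signals this close to the controls come from leaf transcripts was not tested. Seed markers had no probe set named here.

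Genes beside the members were examined for a shared difference. Among the 5 genes on each side of every member, 8 passing neighbours were counted over all 7 members. None of these reached 2-fold as deposited, beside 8.62% of all passing probe sets, and 8 genes are too few to read this as a result. With either spike scaling 1 near BGLU44, AT3G18050, did reach 2-fold. Of all 11373 passing probe sets, 1118 (newer spikes) and 1663 (older spikes) were then at least 2-fold higher. BGLU28, next to BGLU15, was below the level and is not in this count. BGLU15 and BGLU16 had no passing neighbour at all. The neighbour farthest from 0 among those that passed was AT1G26580, near BGLU40, at -0.96, with 45.4 units in BOUNTIFUL and 95.7 units in Ws-0.

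The genes most like each called member were found by distance in the plane of log2 signal on the 2 arrays, a likeness in probe signal over 2 arrays and no more. Nearest to BGLU15 were GH9B8, an endoglucanase family gene, at a distance of 0.13 log2 units, ATLP-1, a thaumatin-like protein gene, at 0.15, and AT1G33170 at 0.26. Nearest to BGLU16 were AT3G44590 at 0.086, AT3G26960 at 0.14 and AT4G12600 at 0.15. Nearest to BGLU33 were AT1G67340 at 0.042, AT3G55470 at 0.049 and AT1G51340 at 0.065.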

How the data were processed

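Per the submitters' processing notes, the authors made the deposited intensity values with MAS5, of unstated version; they are linear signals. On each array the mean of all probe sets, with 2% trimmed from either end, was 100.0. Control probe sets were left out of the counts. The log2 ratio sets BOUNTIFUL over Ws-0 after adding a pseudocount to both signals, at the 20th percentile of all signals, 7.77 units. A probe set passed where its mean signal reached the median, 39.9 units. With 1 array a genotype no test was made, and the number of arrays limits the precision. Names came from the platform's annotation of 2016 and a gene table (assembly TAIR10.1). Of 22746 Arabidopsis probe sets, 13513 had 1 gene, and several probe sets of a gene were averaged in lists. The members, lists and alternatives were chosen with earlier results of these data known. Named genes were the members, the BGLU gene nearest below the level, measured list genes, neighbours within 5 genes and, for called members, the 3 nearest genes in signal. The steps were tested on simulated data with Python 3.11.15, numpy 2.4.6 and statsmodels 0.14.6.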

Additional observations from a re-analysis of the deposited data

Results flagged for a closer look

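Of the BGLU genes below the level, 3 gave a signal above the highest Bacillus subtilis control of the same array. BGLU46 did so with 33.1 units in BOUNTIFUL, and BGLU28 with 59.8 units in BOUNTIFUL. BGLU47 did so on both arrays, with 25.2 units in BOUNTIFUL and 21.2 units in Ws-0.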

How the results depend on the processing

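No paired analysis was possible because there was a single array of each genotype, and leaving out an array was not possible either. A log2 ratio was taken as moved when it changed by more than 0.21, the median difference between a pair of probe sets of 1 gene. None of the log2 ratios of BGLU15, BGLU16 and BGLU33 changed sign under the planned scalings, pseudocounts and filters that retained them; a filter at the 75th percentile left out BGLU15, BGLU33 and BGLU40. With the newer spikes set equal, BGLU15 was at 2.29, BGLU16 at 1.96 and BGLU33 at -0.92, and 1118 probe sets were higher and 203 lower. With the older spikes these were 2.48, 2.15 and -0.74, with 1663 higher and 131 lower, since this scaling raises all BOUNTIFUL signals alike. The share of higher ones among called probe sets was 53.8% as deposited, 84.6% for the newer spikes and 92.7% for the older. BGLU15 was at 2.28 with no pseudocount and 1.52 with the pseudocount at the 40th percentile. Without a filter 948 probe sets were higher and 799 lower, and the filter at the 75th percentile 322 and 251, since more or fewer probe sets enter; the main counts were 527 and 453. Of 112 other values, for the remaining 4 members and the list medians, 27 moved by more than that difference. Signals up to 21.9 units in BOUNTIFUL and 16.7 in Ws-0 cannot be told from background.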
